A study of Mus musculus with 12 samples.

Results

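The RNA of 9 genes of tryptophan breakdown and nicotinamide methylation, Tdo2, Ido2, Afmid, Kmo, Kynu, Haao, Acmsd, Qprt and Nnmt, was followed in mouse liver. They were chosen by name from the pathway, with earlier results of these data known, and make up 9 of the 19252 genes in the expression table. All 9 reached the expression floor for testing (at least 1 TPM in at least 4 libraries), as did 11376 genes in all. The livers came from C57BL/6 mice in 3 groups of 4 libraries. NAC_HFD mice received a high fat diet with N-acetylcysteine, a cysteine donor, at 2 g/L in their drinking water, HFD mice the high fat diet without it, and NFD mice a normal fat diet. All groups were fed for 14 weeks, and every label gives an age of 8 weeks without saying when that age was reached. The labels do not say whether each library came from a separate mouse, so p-values measure the spread between these samples. Values are TPM, a measure of transcript abundance that is divided by transcript length and scaled to a fixed total, so levels of different genes can be compared but read depth is unknown.

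Most tryptophan that is not used for protein is degraded in the liver through kynurenine. Tryptophan dioxygenase, encoded by Tdo2, opens the indole ring to give N-formylkynurenine, and indoleamine dioxygenases 1 and 2 catalyse the same reaction. Kynurenine formamidase (Afmid) releases kynurenine, kynurenine monooxygenase (Kmo) hydroxylates it, kynureninase (Kynu) cuts off the side chain, and 3-hydroxyanthranilate dioxygenase (Haao) opens the remaining ring. The product then goes one of 2 ways. Aminocarboxymuconate semialdehyde decarboxylase (Acmsd) commits it to full oxidation, whereas spontaneous closure gives quinolinate, which quinolinate phosphoribosyltransferase (Qprt) turns into the NAD precursor nicotinate mononucleotide. Nicotinamide released when NAD is consumed is either recycled or methylated by nicotinamide N-methyltransferase (Nnmt) with S-adenosylmethionine as donor.

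All libraries had the RNA of liver parenchyma: each of 10 hepatocyte markers was abundant in every library, the lowest being Hnf4a with 196 to 298 TPM. Between 10864 and 11316 genes reached 1 TPM per library. Mitochondrial transcripts made up 8.91% to 12.6% of the TPM summed over the 19252 genes, a sum of 656154 to 713716 TPM that is below the library total. NFD replicate 3 had the lowest mean correlation with the libraries of its own group, 0.978, and was the single outlying library of its group for 2.24% of tested genes, against 0.686% to 1.94% for the other 11 libraries. It also had the highest value of its group for Nnmt, Acmsd, Qprt, Kynu and Tdo2, so the differences from NFD of those genes are given with and without it.

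Between genes, the levels spanned 2 orders of magnitude. Over the 12 libraries, mean TPM was 404 ± 56.0 for Tdo2, 266 ± 36.6 for Haao, 114 ± 19.0 for Kmo, 93.9 ± 46.9 for Nnmt, 75.7 ± 9.59 for Kynu, 74.1 ± 11.5 for Afmid, 51.7 ± 7.84 for Qprt, 29.0 ± 8.37 for Ido2 and 3.03 ± 2.00 for Acmsd (SD, n = 12). Tdo2 was above Haao, Haao above Kmo, Qprt above Ido2 and Ido2 above Acmsd in 12 of 12 libraries. The neighbours from Kmo down to Qprt overlapped one another. Tdo2 lay at the 98.3 percentile of tested genes by mean TPM and Acmsd at the 21.8 percentile. Ido1, the better-known indoleamine dioxygenase, was listed at 0 to 0.03 TPM, so Ido2 carried nearly all of the indoleamine dioxygenase RNA in these livers.

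**Figure D1:**
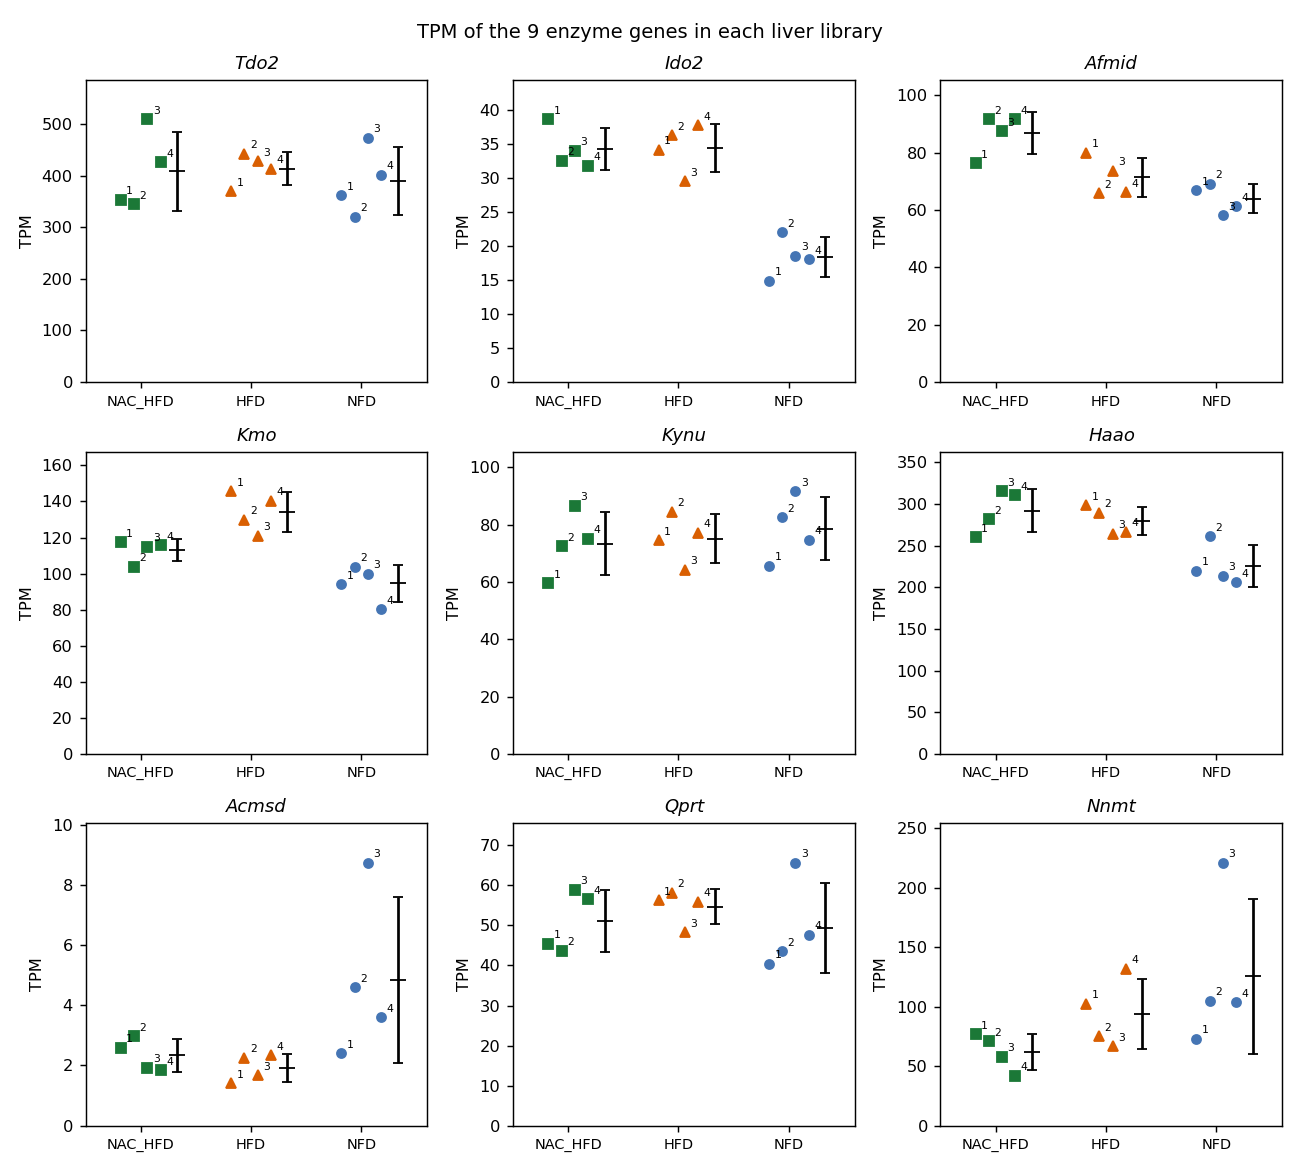
TPM (vertical axes, linear and starting at 0) of the 9 genes in every library of the NAC_HFD (squares), HFD (triangles) and NFD (circles) groups; numbers give the replicate, and bars give the mean ± SD of 4 libraries. Both high fat groups sit above NFD for Ido2, HFD sits above the other groups for Kmo, and NFD replicate 3 stands far above its group for Acmsd (8.73 TPM) and Nnmt (221 TPM).

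The first test asked what the high fat diet was associated with, comparing HFD with NFD. Of the 9 genes, Ido2 and Kmo rose, none fell, and 7 did not pass the test (limma on log2(TPM + 1), Benjamini-Hochberg adjusted p under 0.05 over all 11376 genes). Over all tested genes 2.78% passed in this comparison, 2.19% as higher and 0.589% as lower. The median fold change over the 9 genes was 0.16 on the log2 scale, against 0.01 over all tested genes. The second test asked what N-acetylcysteine was associated with on the high fat diet, comparing NAC_HFD with HFD. None of the 9 genes passed by limma, as for all tested genes (0% of 11376, with 1870 genes under an unadjusted p of 0.05). Among the 9, Kmo and Afmid were under an unadjusted p of 0.05, and Kmo alone was under 0.05 by the exact permutation test. The median over the 9 genes was -0.03, against -0.08 over all tested genes. In the remaining comparison, NAC_HFD with NFD, Ido2, Afmid and Haao rose, none fell and 6 did not pass. Over all tested genes 5.28% passed, 1.76% as higher and 3.52% as lower, and the medians were 0.06 over the 9 genes and -0.07 over all tested genes. Both comparisons with NFD share the NFD libraries, and the diet comparison shares its HFD libraries with that of NAC_HFD and HFD, so their fold changes are not independent. Without NFD replicate 3 the genes that passed were Ido2 and Kmo in HFD against NFD, none in NAC_HFD against HFD, and Ido2 in NAC_HFD against NFD.

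**Figure D2:**
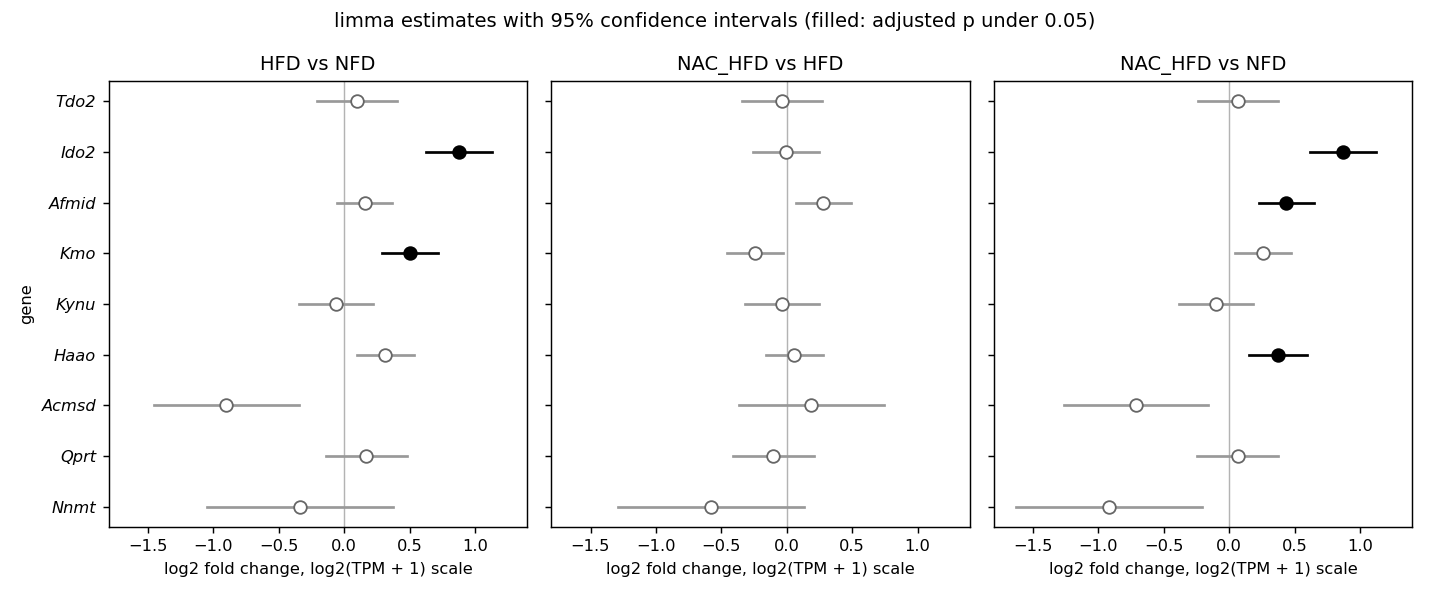
Log2 fold changes (horizontal axes, log2(TPM + 1) scale; above 0 means higher in the group named first) with 95% confidence intervals for the 9 genes in the 3 comparisons. Filled symbols mark an adjusted p under 0.05, reached by Ido2 and Kmo for HFD vs NFD, by none for NAC_HFD vs HFD, and by Ido2, Afmid and Haao for NAC_HFD vs NFD.

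The promoters of Kmo, Haao and Afmid, which passed the test in at least 1 comparison, are shown to set their base composition beside the RNA values. RefSeq promoter records (assembly GRCm38.p6, 250 bases before the annotated start and 50 after it) matched 6 of the 9 genes; Ido2, Kynu and Nnmt had no entry. Sequences run 5′ to 3′ on the gene's strand, and capitals mark a match to one of the searched motifs on either strand.
Kmo, chr1:175631943-175632242 (plus strand): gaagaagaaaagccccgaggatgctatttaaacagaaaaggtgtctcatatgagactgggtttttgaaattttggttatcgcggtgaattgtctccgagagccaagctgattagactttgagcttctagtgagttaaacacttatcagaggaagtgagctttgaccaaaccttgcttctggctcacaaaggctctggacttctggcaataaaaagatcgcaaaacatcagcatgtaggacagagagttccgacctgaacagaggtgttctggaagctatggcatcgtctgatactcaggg
Haao, chr17:83846741-83847040 (minus strand): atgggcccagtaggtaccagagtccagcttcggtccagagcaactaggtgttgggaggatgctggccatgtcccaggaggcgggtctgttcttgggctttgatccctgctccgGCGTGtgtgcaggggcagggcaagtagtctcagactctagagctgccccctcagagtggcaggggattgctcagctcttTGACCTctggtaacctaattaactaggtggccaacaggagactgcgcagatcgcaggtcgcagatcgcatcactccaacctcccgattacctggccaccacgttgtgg
Afmid, chr11:117825669-117825968 (plus strand): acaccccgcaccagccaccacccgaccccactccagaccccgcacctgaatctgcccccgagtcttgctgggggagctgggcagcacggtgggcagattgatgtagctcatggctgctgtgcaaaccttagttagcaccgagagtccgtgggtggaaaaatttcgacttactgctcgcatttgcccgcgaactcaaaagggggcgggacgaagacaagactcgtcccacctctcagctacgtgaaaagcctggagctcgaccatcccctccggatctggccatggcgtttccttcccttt

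In all, 6 motifs were searched on both strands. The TATA box, spelled TATAAA, was in 13.6% of the 32851 RefSeq promoters. The CCAAT box was in 37.4% of them, and the core of the aryl hydrocarbon receptor element, spelled GCGTG, was in 32.4%. The nuclear receptor half-site, spelled AGGTCA, was in 16.3%. The interferon response element was in 3.44%, and the palindrome bound by C/EBP factors, spelled TTGCGCAA, was in 0.183%. Kmo and Afmid held none of the 6 in this window. Haao held GCGTG 137 bases before the start and, on the opposite strand, AGGTCA 58 bases before it. The hits did not overlap. The Haao and Afmid windows lie within the gene spans given below, so their annotated starts are not the outer ends of those spans. The Afmid window had 18 CpG sites and 59.7% GC, Haao 10 and 58.7%, and Kmo 7 and 44.3%, where the median over all promoters was 7 CpG sites and 52.7% GC. A match of letters is a description of sequence and no evidence of binding.

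Ido2 (ENSMUSG00000031549, protein coding, chromosome 8 from 24531892 to 24576414, build GRCm38) showed the largest difference of the 9 genes in HFD against NFD among those that passed. It had 38.6, 32.5, 34.0 and 31.8 TPM in the NAC_HFD livers, 34.2, 36.3, 29.5 and 37.7 TPM in the HFD livers, and 14.9, 22.0, 18.6 and 18.04 TPM in the NFD livers. Each of the 8 libraries on the high fat diet lay above each NFD library, while NAC_HFD and HFD overlapped. Ido2 was 1.84-fold higher in HFD than in NFD, a log2 fold change of 0.88 (SE 0.12, adjusted p = 0.0028 by limma). Against NFD, NAC_HFD was 1.83-fold higher (0.87, SE 0.12, adjusted p = 0.00328). The exact two-sided permutation test gave p = 0.0286 for both, the smallest that 4 against 4 libraries allow. NAC_HFD and HFD differed by -0.01, with a 95% interval from -0.26 to 0.25. Ido2 passed in both comparisons with NFD under all 12 omissions of a single library, with adjusted p up to 0.0144 in HFD and 0.0118 in NAC_HFD.

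Tdo2 (ENSMUSG00000028011, chromosome 3 from 81958412 to 81975728), the more abundant enzyme for the same reaction, varied as much within groups as between them. It had 353, 344, 509 and 426 TPM in NAC_HFD, 370, 442, 428 and 413 TPM in HFD, and 362, 320, 473 and 402 TPM in NFD. The 3 groups overlapped throughout. The difference between HFD and NFD was 0.10 (95% interval from -0.21 to 0.40, adjusted p = 0.754 by limma), or 0.20 without NFD replicate 3. That between NAC_HFD and HFD was -0.03 (from -0.34 to 0.27), and that between NAC_HFD and NFD was 0.06, or 0.16 without NFD replicate 3. Tdo2 is a classical target of the glucocorticoid receptor in liver, and of 11 genes listed as comparators (the receptor gene Nr3c1, its targets Tat, Fkbp5, Per1 and Tsc22d3, and amino acid catabolic enzymes), 0 passed in any of the 3 comparisons. The smallest unadjusted p among them belonged to Hgd, a tyrosine catabolic enzyme. Hgd had 201, 208, 242 and 230 TPM in NAC_HFD and 267, 292, 441 and 269 TPM in NFD, a log2 difference of -0.50 (adjusted p = 0.0599). Next were Nr3c1 and Fah, the last enzyme of tyrosine breakdown, at 0.32 and 0.29 in NAC_HFD against NFD (adjusted p = 0.0655 and 0.0726).

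Afmid (ENSMUSG00000017718, chromosome 11 from 117825503 to 117839908) was highest in the livers with N-acetylcysteine. It had 76.4, 91.7, 87.5 and 91.7 TPM in NAC_HFD, 80.0, 65.9, 73.7 and 66.2 TPM in HFD, and 66.9, 69.2, 58.2 and 61.3 TPM in NFD. Every NAC_HFD library exceeded every NFD library. Only NAC_HFD replicate 1 fell within the HFD range. Afmid rose 1.35-fold in NAC_HFD over NFD (log2 fold change 0.44, SE 0.10, adjusted p = 0.0247 by limma; exact permutation p = 0.0286). It no longer passed without NAC_HFD replicate 3 (adjusted p = 0.0608), NAC_HFD replicate 4 (0.0716), NFD replicate 1 (0.0502) or NFD replicate 3 (0.0615), and when NAC_HFD and NFD alone were fitted (0.0664). Against HFD, NAC_HFD was 0.28 higher on the log2 scale (95% interval from 0.07 to 0.49) and did not pass (adjusted p = 0.192). HFD and NFD differed by 0.16 (from -0.05 to 0.37).

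The annotated span of Afmid overlaps that of Tk1, thymidine kinase, by 585 bases, and the promoter window printed above lies within the span of Tk1. The sources used here do not say whether counting used strand. Tk1 had 17.3 to 21.3 TPM in NAC_HFD, 16.4 to 26.4 TPM in HFD and 14.9 to 21.4 TPM in NFD, ranges that overlap.

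Kmo (ENSMUSG00000039783, chromosome 1 from 175632193 to 175660853) was highest in the high fat livers without N-acetylcysteine. It had 117, 104, 115 and 116 TPM in NAC_HFD, 146, 130, 121 and 140 TPM in HFD, and 94.1, 104, 99.99 and 80.2 TPM in NFD. All HFD libraries lay above all libraries of both other groups, and NAC_HFD overlapped NFD only through NAC_HFD replicate 2. Kmo rose 1.42-fold in HFD over NFD (log2 fold change 0.50, SE 0.10, adjusted p = 0.0189 by limma; exact permutation p = 0.0286). It no longer passed when HFD replicate 1 (adjusted p = 0.0764), HFD replicate 4 (0.0632) or NFD replicate 1 (0.0522) was omitted. In NAC_HFD against HFD the difference was -0.24 (95% interval from -0.46 to -0.03) and did not pass after adjustment over all genes (adjusted p = 0.249; exact permutation p = 0.0286). In this comparison 10.2% of all tested genes had groups that did not overlap, 8.66% with NAC_HFD below HFD and 1.56% with NAC_HFD above it. NAC_HFD and NFD differed by 0.26 (from 0.04 to 0.47, adjusted p = 0.142).

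Kupffer cell markers, those of the resident liver macrophages, moved in the same direction as Kmo in HFD against NFD and in NAC_HFD against HFD. Most did not in NAC_HFD against NFD. The summed level of 10 such markers was 74.7 to 147 TPM in NAC_HFD, 108 to 271 TPM in HFD and 80.9 to 153 TPM in NFD. All 10 had positive fold changes in HFD against NFD (median 0.56) and all 10 negative ones in NAC_HFD against HFD (median -0.72), with 0 passing the test in either. Over all tested genes the medians were 0.01 and -0.08 in the same comparisons. In NAC_HFD against NFD 2 of the 10 markers had positive fold changes (median -0.15, against -0.07 over all tested genes) and 0 passed. Kmo was at 0.26 in that comparison. No marker on the Kupffer cell list was at 0. The adipose list summed to 5.77 to 12.9 TPM in NAC_HFD, 15.6 to 43.5 TPM in HFD and 7.71 to 10.8 TPM in NFD, with its defining gene Adipoq at 0 to 0.15 TPM and 3 of 6 measured genes under 1 TPM everywhere. Of its 3 tested genes, all had positive differences in HFD against NFD (median 0.43), where Cfd passed, and negative ones in NAC_HFD against HFD (median -0.41), where 0 passed. The part of these markers in the Kmo values was not tested. In bulk liver RNA, fewer cells of a type and less RNA per cell cannot be told apart.

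Kynu (ENSMUSG00000026866, chromosome 2 from 43555258 to 43683048) gave no passing difference. It had 59.4, 72.4, 86.5 and 75.0 TPM in NAC_HFD, 74.5, 84.5, 64.2 and 77.2 TPM in HFD, and 65.6, 82.5, 91.7 and 74.65 TPM in NFD, with full overlap of the groups. The 95% intervals of the log2 differences ran from -0.34 to 0.22 between HFD and NFD, from -0.32 to 0.24 between NAC_HFD and HFD and from -0.38 to 0.18 between NAC_HFD and NFD. Without NFD replicate 3 the differences from NFD were 0.02 for HFD and -0.02 for NAC_HFD, against -0.06 and -0.10 with it.

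Haao (ENSMUSG00000000673, chromosome 17 from 83831348 to 83848981) had higher means on the high fat diet, at the edge of the threshold. It had 260, 282, 315 and 310 TPM in NAC_HFD, 299, 289, 264 and 267 TPM in HFD, and 220, 261, 214 and 206 TPM in NFD. The HFD libraries all exceeded the NFD libraries, whereas NAC_HFD replicate 1 lay just below NFD replicate 2. Haao rose 1.30-fold in NAC_HFD over NFD (log2 fold change 0.37, SE 0.10, adjusted p = 0.0499 by limma; exact permutation p = 0.0571). That call was lost in 10 of 12 omissions of 1 library, the highest adjusted p being 0.128 without NAC_HFD replicate 3. It was kept without NAC_HFD replicate 1 or NFD replicate 2. HFD was 0.31 above NFD (95% interval from 0.10 to 0.53) and did not pass (adjusted p = 0.115; exact permutation p = 0.0286). In HFD against NFD the groups did not overlap for 4 of these 9 genes: Ido2, Kmo and Haao had HFD above and Acmsd had it below. Over all tested genes that share was 12.4%, with HFD above NFD for 7.78% and below it for 4.57%. For NAC_HFD against NFD the groups did not overlap for 2 of the 9, Ido2 and Afmid, both with NAC_HFD above. The share over all tested genes was 12%, with NAC_HFD above for 3.52% and below for 8.52%. NAC_HFD and HFD differed by 0.06 (from -0.16 to 0.28). The pseudogene Gm19260 overlaps the span of Haao by 342 bases and was not analysed here.

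The exocrine pancreas list is set beside the calls for Afmid and Haao in NAC_HFD against NFD. It summed to 20.4 to 31.6 TPM in NAC_HFD, 19.0 to 27.5 TPM in HFD and 9.79 to 17.0 TPM in NFD. In both high fat groups the list was above NFD in every library. Only 1 of its 4 measured genes, Cela1, reached 1 TPM in any library. Cpa1, Pnlip and Amy2a1 had at most 0.11, 0.07 and 0.04 TPM. Cela1 passed by limma in NAC_HFD against NFD (log2 difference 0.72) and did not pass in HFD against NFD (0.61). The part of that signal in the result was not tested.

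At the branch point the decarboxylase Acmsd (ENSMUSG00000026348, chromosome 1 from 127729413 to 127767564) had its lowest values in the high fat groups. It had 2.59, 2.97, 1.92 and 1.84 TPM in NAC_HFD, 1.4, 2.26, 1.68 and 2.34 TPM in HFD, and 2.40, 4.59, 8.73 and 3.61 TPM in NFD. All HFD libraries lay below all NFD libraries, although HFD replicate 4 and NFD replicate 1 differed by little, and NAC_HFD overlapped NFD. The log2 difference between HFD and NFD was -0.90 (SE 0.26, 95% interval from -1.46 to -0.35) and did not pass (adjusted p = 0.0804 by limma; exact permutation p = 0.0286). Without NFD replicate 1 it was -1.12 and passed (adjusted p = 0.0367), and without NFD replicate 3 it was -0.62 (adjusted p = 0.0991). NAC_HFD was -0.71 against NFD (adjusted p = 0.123), or -0.43 without NFD replicate 3 (adjusted p = 0.209), and NAC_HFD was 0.19 against HFD (from -0.36 to 0.74). The authors' deposited transcript table for HFD and NFD lists the Acmsd transcript with a log2 fold change of -1.32 and an adjusted p of 0.0325. Its entries all have an unadjusted p under 0.05 by the authors' test, and not all pass after adjustment. All of them also have a log2 fold change of at least about 1 in either direction. In the present fit of that transcript, on log2(TPM + 0.1), the difference was -1.16 and did not pass (adjusted p = 0.213 by limma). Without NFD replicate 3 the transcript was at -0.83 (adjusted p = 0.305 by limma). The lncRNA genes Gm35993 and 2900009J06Rik overlap Acmsd and were not analysed here, so reads of either could have been counted in it.

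Qprt (ENSMUSG00000030674, chromosome 7 from 127107770 to 127122029), on the NAD branch, did not differ detectably. It had 45.4, 43.7, 58.9 and 56.6 TPM in NAC_HFD, 56.3, 58.2, 48.4 and 55.9 TPM in HFD, and 40.5, 43.5, 65.7 and 47.7 TPM in NFD. The highest and the lowest value were both in NFD. HFD was 0.17 above NFD (95% interval from -0.14 to 0.48, adjusted p = 0.559 by limma), and 0.31 above it without NFD replicate 3 (adjusted p = 0.194). NAC_HFD was 0.06 above NFD, or 0.21 without that library (adjusted p = 0.354). The ratio of the branch enzymes, log2 of Acmsd over Qprt with 1 TPM added to each, was -3.97 ± 0.45 in NAC_HFD, -4.26 ± 0.21 in HFD and -3.20 ± 0.38 in NFD (SD, n = 4). It is given as a description. The ratio of each HFD library, -4.58 to -4.09, was lower than that of each NFD library, -3.61 to -2.78.

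Nnmt (ENSMUSG00000032271, chromosome 9 from 48538002 to 48607655) had, relative to its mean, a wider spread over the 12 libraries than any of the 9 genes except Acmsd, by the SD as a share of the mean. It had 76.7, 71.2, 58.1 and 41.9 TPM in NAC_HFD, 102, 75.4, 66.6 and 132 TPM in HFD, and 73.1, 105, 221 and 104 TPM in NFD. The NAC_HFD libraries were low, but replicate 1 exceeded the lowest NFD library and the 2 lowest HFD libraries. The log2 difference between NAC_HFD and NFD was -0.92 (SE 0.32, 95% interval from -1.63 to -0.21) and did not pass (adjusted p = 0.122 by limma; exact permutation p = 0.0571). Without NFD replicate 3 it was -0.61 (adjusted p = 0.206). NAC_HFD against HFD gave -0.58 (from -1.29 to 0.13, adjusted p = 0.395). HFD against NFD gave -0.34 (from -1.05 to 0.37), and -0.03 without NFD replicate 3, so that difference rested on 1 library. Log2 of Nnmt over Qprt, with 1 TPM added to each, was 0.25 ± 0.57 in NAC_HFD, 0.72 ± 0.39 in HFD and 1.23 ± 0.38 in NFD (SD, n = 4), with overlap between neighbouring groups.

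The gene values are sums over transcripts, 16 in the mRNA table and 11 in the lncRNA table for these 9 genes. Tests on mRNA transcripts used log2(TPM + 0.1). Ido2 came almost wholly from ENSMUST00000121992, with a mean share of 99.6% in NAC_HFD, 99.2% in HFD and 99.7% in NFD. That transcript passed in HFD against NFD (log2 fold change 0.90, adjusted p = 0.0204 by limma), as 1 of the 16 transcripts, where 0.205% of all 31185 tested transcripts passed. In NAC_HFD against NFD it passed (0.90, adjusted p = 0.0238) together with the main Afmid transcript ENSMUST00000073388 (0.58, adjusted p = 0.0431), making 2 of 16, where 0.404% of transcripts passed. The Afmid transcript did not pass without NFD replicate 3 (adjusted p = 0.0922) or NFD replicate 4 (0.0660), whereas the Ido2 transcript passed without either in both comparisons (adjusted p up to 0.0482). In NAC_HFD against HFD 0 of 16 passed, where 0.0192% of transcripts did. The main Kmo transcript ENSMUST00000040250 had a log2 difference of 0.55 between HFD and NFD and did not pass on its own (adjusted p = 0.130).

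The mean make-up of some genes differed between groups, as a description without a test. ENSMUST00000073388 took 90.1% to 92.3% of Afmid in NAC_HFD, 84.2% to 87.6% in HFD and 79.5% to 88.6% in NFD, so every NAC_HFD library had a higher share than every other library. The number of all transcripts whose shares separate like this was not counted. For Haao, the second mRNA transcript ENSMUST00000234214 had 63.1, 93.6, 93.9 and 94.3 TPM in NAC_HFD, 80.6, 79.9, 64.5 and 65.7 TPM in HFD, and 50.1, 62.4, 55.5 and 40.9 TPM in NFD. Every library on the high fat diet was above every NFD library for this transcript, though NAC_HFD replicate 1 exceeded NFD replicate 2 by little. How many of all transcripts separate in this way was not counted. Its mean share was 29.4% in NAC_HFD (24.3% to 33.2%), 25.9% in HFD (24.4% to 27.6%) and 23.1% in NFD (19.85% to 25.9%), so the shares overlapped. The transcript did not pass in NAC_HFD against NFD (log2 difference 0.72, adjusted p = 0.0884 by limma) or in HFD against NFD (0.48, adjusted p = 0.289). The Nnmt transcript ENSMUST00000119426 had 84.8 TPM in NFD replicate 3 and 22.1 to 35.3 TPM in the other 3 NFD libraries, so the excess of that library was in both mRNA transcripts of Nnmt.

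**Figure D3:**
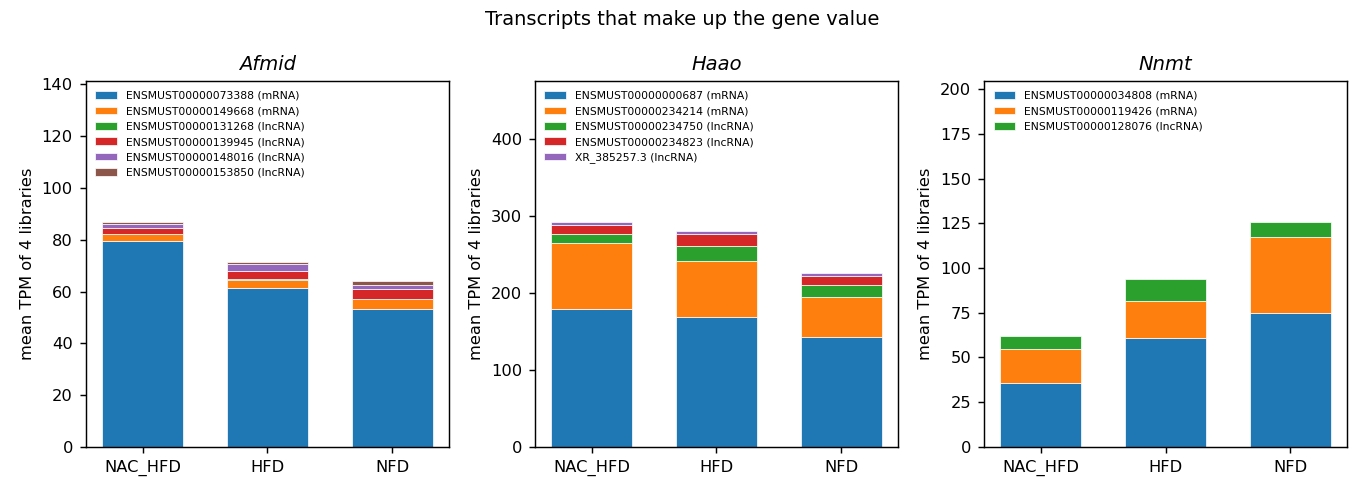
Mean TPM of 4 libraries (vertical axes, linear, starting at 0) for each transcript of Afmid, Haao and Nnmt in NAC_HFD, HFD and NFD, stacked to the gene's mean; no error bars are drawn. The main Afmid transcript makes up most of the height in each group, with a mean share of 91.5% in NAC_HFD, 85.8% in HFD and 83.4% in NFD.

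A minor Tdo2 transcript, ENSMUST00000193879, had 8.31, 4.68, 8.19 and 5.26 TPM in NAC_HFD, 9.10, 7.12, 12.1 and 3.09 TPM in HFD, and 11.5, 6.72, 17.7 and 49.8 TPM in NFD. One NFD library, replicate 4, was far above the rest. The authors' deposited table for HFD and NFD lists it with a log2 fold change of -1.43 and an adjusted p of 0.166. In the present fit the difference was -1.19 (adjusted p = 0.480 by limma), and -0.65 without NFD replicate 4. These were the only 2 of the 16 mRNA transcripts in the authors' deposited tables, the other being that of Acmsd. The deposited table for NAC_HFD and HFD lists 0 of them, and the lncRNA tables list 0 of the 11. All entries of these tables meet the limits on p and fold change given above, so absence need not mean a large p. The Ido2 transcript, at 0.90 between HFD and NFD in the present fit, was below that fold change.

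A further 7 lists of related genes, 86 symbols in all, put the 9 enzymes in context; 7 symbols had no row and were not analysed here, and 66 rows were tested. No list gene passed in HFD against NFD or in NAC_HFD against HFD by limma. In NAC_HFD against NFD 4 passed, Nampt, Naprt, Aox1 and Cyp2e1, which is 6.06% of the 66 rows, near the 5.28% of all tested genes. The unadjusted p was under 0.05 for 14 of the 66 rows (21.2%) in HFD against NFD, 12 (18.2%) in NAC_HFD against HFD and 13 (19.7%) in NAC_HFD against NFD. Over all tested genes the shares were 19.1%, 16.4% and 22.6% in the same comparisons.

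Among 14 tested rows of NAD synthesis genes, 1 rose and 1 fell in NAC_HFD against NFD, where 1.76% of all tested genes rose and 3.52% fell. Nampt, the rate-limiting enzyme that recycles nicotinamide, had 38.9, 43.8, 33.1 and 33.4 TPM in NAC_HFD, 35.7, 39.0, 32.5 and 28.3 TPM in HFD, and 28.0, 31.1, 16.5 and 20.3 TPM in NFD. NAC_HFD lay wholly above NFD (log2 fold change 0.65, SE 0.17, adjusted p = 0.0462 by limma), but the call held in 1 of 12 omissions of a library, and without NFD replicate 3 the difference was 0.49 (adjusted p = 0.0987). Naprt, which takes up nicotinic acid into the NAD pathway, had 32.6, 38.7, 38.4 and 39.8 TPM in NAC_HFD, 49.3, 48.7, 46.0 and 42.4 TPM in HFD, and 55.3, 49.2, 63.7 and 56.4 TPM in NFD. It fell in NAC_HFD against NFD, with NAC_HFD below both other groups in every library (-0.57, SE 0.10, adjusted p = 0.00876). When only mRNA transcripts were summed, the Naprt difference was -0.31 and did not pass (adjusted p = 0.143). Nt5e, a nucleotidase, and Slc25a51, the mitochondrial NAD carrier, were closest among the others, at 0.63 and 0.45 in HFD against NFD (adjusted p = 0.0865 and 0.181).

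In the list of nicotinamide clearance and methyl donor genes, 1 of 8 rose and 1 fell in NAC_HFD against NFD, beside the same 1.76% and 3.52% of all tested genes. Aox1, an aldehyde oxidase that turns methylnicotinamide, the product of Nnmt, into pyridones, had 25.8, 15.5, 28.1 and 23.8 TPM in NAC_HFD, 39.7, 49.9, 40.0 and 38.6 TPM in HFD, and 41.1, 34.7, 46.9 and 42.6 TPM in NFD. All NAC_HFD libraries lay below all others (against NFD -0.82, SE 0.16, adjusted p = 0.0138 by limma). Against HFD the Aox1 difference was of similar size, -0.85 (SE 0.16), and did not pass (adjusted p = 0.0515). Aox1 has a close paralog, Aox3, and the division of reads between them is not stated. Cyp2e1, a cytochrome P450 that oxidises ethanol and many small molecules and contributes to nicotinamide oxidation, had 8937, 9239, 9063 and 10053 TPM in NAC_HFD, 7956, 6558, 7490.5 and 7560.1 TPM in HFD, and 7096, 5891, 5627 and 5898 TPM in NFD. Every NAC_HFD library exceeded every other library (against NFD 0.61, SE 0.11, adjusted p = 0.00816). Mat1a, which makes the methyl donor of Nnmt, was -0.56 in NAC_HFD against NFD (adjusted p = 0.182), with 3557 TPM in NFD replicate 3 and 1099 to 1745 TPM in all other libraries.

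**Figure D4:**
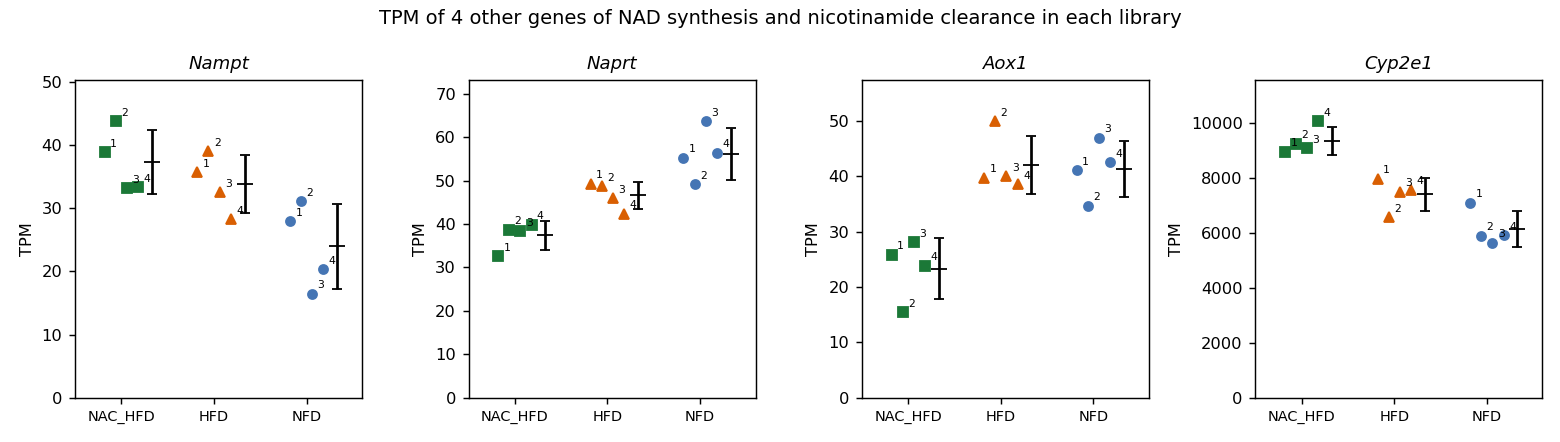
TPM (vertical axes, linear and starting at 0) of Nampt, Naprt, Aox1 and Cyp2e1 in every library of the NAC_HFD (squares), HFD (triangles) and NFD (circles) groups; numbers give the replicate, and bars give the mean ± SD of 4 libraries. NAC_HFD lies below both other groups for Naprt and Aox1 and above both for Cyp2e1.

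In the remaining lists, 0 genes passed in any comparison. The other genes of tryptophan breakdown, 11 tested rows, had 7 positive differences in HFD against NFD, with a median of 0.08 against 0.01 over all tested genes. The closest to passing were Gcdh, which acts late in full tryptophan oxidation, at 0.30 (adjusted p = 0.0697 by limma), the monoamine oxidase Maob at 0.37 (adjusted p = 0.0834) and the kynurenine aminotransferase Got2 at 0.26 (adjusted p = 0.146). Each had all HFD libraries above all NFD libraries, as did 7.78% of all tested genes. Among 12 NAD-consuming enzymes, the sirtuin Sirt5 was at 0.39 in HFD against NFD (adjusted p = 0.0917 by limma). In NAC_HFD against HFD 0 of the 12 differences were positive (median -0.15, against -0.08 over all tested genes). All tested genes leaned the same way there, with 8.66% wholly below HFD and 1.56% wholly above it. Their share of positive differences was not counted. Of 4 tested tryptophan transporters, Slc7a8 was at -0.34 in NAC_HFD against HFD (adjusted p = 0.175). Kynurenine is a ligand of the aryl hydrocarbon receptor, and of 6 tested genes on the list of that receptor and its targets, Nqo1 was at -0.63 in NAC_HFD against HFD (adjusted p = 0.125) and Cyp1a2 at -0.45 in HFD against NFD (adjusted p = 0.147).

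The tested genes most like each enzyme across the 12 libraries were found by Pearson correlation of log2(TPM + 1), with predicted and clone-named genes left out. These correlations are descriptions over libraries that share diets and a fixed TPM total. Ido2 ran closest to Dio1 and Acot11 (both 0.94), and Kmo to Pafah2 and Invs (both 0.95). Haao ran closest to Pm20d1 and Hnmt (both 0.96), Afmid to Pigr (0.95) and Wdr45b (0.94), and Qprt to Slc36a1 and Aldh1b1 (both 0.96). For Tdo2 the nearest were Trib3 (0.92) and Cenpb (0.87), for Kynu Gsap (0.93) and Sipa1l2 (0.87), for Acmsd Asl (0.92) and Os9 (0.90), and for Nnmt Gtf2ird1 and Ggt6 (both 0.88). No pair of the 9 enzymes appeared among these nearest genes. Dio1 averaged 84.5 TPM in NAC_HFD, 104 TPM in HFD and 29.9 TPM in NFD, and Asl, a urea cycle enzyme, averaged 240 TPM in NAC_HFD, 227 TPM in HFD and 445 TPM in NFD.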

How the data were processed

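Total RNA from 12 mouse liver libraries was sequenced by the authors, with groups taken from the labels. The submitters' processing notes name fastp, HISAT and RSEM with genome build GRCm38; versions, settings and strand use are not stated there. The authors deposited TPM for genes and for mRNA and lncRNA transcripts, and comparison tables with fold changes as ratios, log2 fold changes and p-values per the file headers. The mRNA and lncRNA TPM of a library share a fixed total, so a few abundant transcripts lower all others, and depth is unknown: no counting intervals could be given. All 19252 gene values equalled the sum of their transcripts within 0.1 TPM or 1%.

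Genes with at least 1 TPM in at least 4 libraries were tested on log2(TPM + 1); the pseudocount shrinks fold changes of low genes such as Acmsd. One model with 3 group means over 12 libraries was fitted with limma 3.58.1 in R 4.3.3 (eBayes with trend and robust, 9 residual degrees of freedom). Tests were two-sided, with Benjamini-Hochberg adjustment within each comparison and a threshold of 0.05. mRNA transcripts used a floor and a pseudocount of 0.1 TPM. The procedure was tested on simulated data. Single values were compared by an exact two-sided permutation test. The 9 genes, the lists and the tests were chosen with earlier results of these data known. Named genes are the 9, each list gene that passed, and up to 3 others per list with the smallest unadjusted p. For each of the 9, the 2 most correlated genes that were not predicted or clone-named are also named. Alternatives changed the pseudocount, floor, scaling, transcripts summed, model and libraries. The lncRNA named in the series title was not analysed here, and the promoters of the other 3 matched genes are not reported here.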

Additional observations from a re-analysis of the deposited data

Results flagged for a closer look

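Of 39 groups of 4 libraries looked at (the 9 enzymes and Nampt, Naprt, Aox1 and Cyp2e1 in each group), 1 held a library set apart from the others: Aox1 was 49.94 TPM in HFD replicate 2, against 38.6 to 40.0 TPM in the other HFD libraries. By Dixon's 95% criterion, chance marks about 1 in 20 groups. Neither Nnmt nor Acmsd in NFD replicate 3 met it.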

How the results depend on the processing

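Of the 11 alternatives that kept all libraries and the 12 omissions of 1 library, Ido2 passed against NFD under all of them in both comparisons. Omitting 1 library gave 1 to 2 passing members of the 9 for HFD against NFD and 1 to 3 for NAC_HFD against NFD, and 90 to 375, 0 to 64 and 211 to 618 passing genes overall for HFD against NFD, NAC_HFD against HFD and NAC_HFD against NFD. The lowest of these counts came without HFD replicate 1 (90) and NAC_HFD replicate 4 (211), and the 64 without NAC_HFD replicate 1. With no expression floor 168 and 289 genes passed against NFD in HFD and NAC_HFD, and fitting NAC_HFD and NFD alone left 188 genes and 1 of the 9. Fitting HFD and NFD alone gave 319 genes, against 316, and 2 of the 9. Acmsd had no value at a floor of 5 TPM. Haao in HFD against NFD passed after quantile normalization (adjusted p = 0.0461), and in NAC_HFD against NFD it did not pass without a floor (0.0746) or after rescaling within the gene table (0.0554); the cause was not tested.

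Scaling moved the split of calls. For HFD against NFD, 249 genes rose and 67 fell as reported, against 274 and 121 after median-of-ratios scaling, 259 and 160 after quantile normalization and 188 and 99 after rescaling within the gene table. For NAC_HFD against NFD the counts were 200 and 401 as reported, then 363 and 269, 314 and 294, and 183 and 496 under the same 3 scalings; summing mRNA transcripts alone gave 185 and 226. The fold changes near 0 that turned sign were Ido2 in NAC_HFD against HFD (0.089, 0.069 and 0.011 under the 3 scalings, -0.075 to 0.039 when a library was omitted), Tdo2 (HFD against NFD -0.012 after quantile normalization; NAC_HFD against HFD 0.064 after median-of-ratios scaling, 0.028 after quantile normalization, -0.15 to 0.042 on omission; NAC_HFD against NFD -0.048 to 0.16 on omission), Kynu (NAC_HFD against HFD 0.057 and 0.053 after those scalings, -0.12 to 0.056 on omission; HFD against NFD -0.14 to 0.016 on omission) and Qprt (NAC_HFD against NFD -0.021 to 0.21 on omission). None of these passed in any setting.

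Of mRNA transcripts, 64, 6 and 126 passed in the 3 comparisons as reported (HFD against NFD, NAC_HFD against HFD, NAC_HFD against NFD). With a floor of 1 TPM 99, 0 and 226 passed, and with log2(TPM + 1) 2 passed for NAC_HFD against HFD. Omissions chosen after seeing the data, of NFD replicate 3 or 4, gave 43 for HFD against NFD, 7 to 15 for NAC_HFD against HFD and 61 to 138 for NAC_HFD against NFD. The log2 ratio of Acmsd to Qprt in HFD was -4.79 with 0.1 TPM added.

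Deviations of same-numbered libraries had a median correlation of -0.03 (from -0.17 to 0.18 over 12 pairs, 2 above 0.1). For pairs with other numbers the median was 0.03 (from -0.25 to 0.22 over 36 pairs, 8 above 0.1). The labels do not say whether the numbers pair samples, and weak correlations cannot decide it. With a replicate block 225, 3 and 406 genes, 13, 3 and 4 transcripts, and 2, 0 and 1 of the 9 enzymes passed in the 3 comparisons; Afmid (adjusted p = 0.0551) and Haao (0.0892) in NAC_HFD against NFD did not, nor did the transcripts of Ido2 (0.0992 in HFD and 0.0907 in NAC_HFD, both against NFD) and Afmid (0.127).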

Other observations

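Nnt, the mitochondrial transhydrogenase that links NADH to NADPH, has 2 gene entries under one symbol, and the division of reads between them is not stated. The second entry (ENSMUSG00000116207) had 11.1, 14.5, 11.6 and 14.5 TPM in NAC_HFD, 0, 14.8, 10.3 and 0.39 TPM in HFD, and 0, 4.59, 16.0 and 0.01 TPM in NFD. It was thus near 0 in HFD replicates 1 and 4 and in NFD replicates 1 and 4, and in no NAC_HFD library. The first entry (ENSMUSG00000025453) had 37.7, 29.9, 39.9 and 45.6 TPM in NAC_HFD, 59.0, 50.5, 42.8 and 53.5 TPM in HFD, and 56.5, 48.4, 36.8 and 44.6 TPM in NFD. These values were picked out after they were seen, and neither entry passed by limma in any of the 3 comparisons.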
